A study of Homo sapiens with 12 samples.

Results

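Small nucleolar RNA host genes are transcripts whose introns hold small nucleolar RNAs (snoRNAs). They were taken by name, as every gene named SNHG with a number, plus GAS5, ZFAS1, EPB41L4A-AS1, DANCR, TAF1D and MEG3, which gave 30 of the 57133 gene names counted. Of these 30 genes, 28 had a count in at least 1 library and 25 had enough counts to be tested, among 14504 genes tested in all. In the GENCODE 29 annotation 26 of the 30 span an annotated snoRNA or its Cajal body counterpart, 135 in all, and 83 of those lie in SNHG14. SNHG27, SNHG28 and MEG3 span none by name, and none is annotated by these names within GAS5 although that gene is a known host. RNA came from MCF10-A, a human breast epithelial line that forms no tumours, in which doxycycline switched on a transgene. There were 4 groups of 3 biological replicates, each given 50 ng/ml doxycycline and harvested at day 5. Cells with mVenus-p16 received the mTOR kinase inhibitor Torin2 at 100 nM (p16 with Torin2) or the solvent DMSO (p16). Cells with mVenus-p21 (p21) and cells with the fluorescent protein mVenus alone (mVenus) received no Torin2, so its effect can be read only in p16 cells. The p16 and p21 proteins inhibit cyclin-dependent kinases and stop the cell cycle. Whether each inducible line was a clone is not given in the sources used here.

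Most snoRNAs are released from introns of host genes and guide chemical modification of ribosomal RNA, box C/D snoRNAs for methylation and box H/ACA snoRNAs for pseudouridylation. Many hosts start with a terminal oligopyrimidine (TOP) tract, a C followed by a run of pyrimidines that they share with mRNAs of ribosomal proteins and translation factors, whose translation depends on mTOR. Spliced hosts such as GAS5 code for no long protein, are exported, and are degraded by nonsense-mediated decay when they are translated, so that blocked translation or growth arrest is known to let them accumulate. Host RNA and snoRNA need not move together.

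The first bases of several hosts are shown because the TOP tract lies there. Each line gives 40 bases, 20 on either side of the start in RefSeq (build GRCh38.p14), in the sense of the gene, with the letters CTTTC or CTTTT in capitals where they occur.
SNHG5: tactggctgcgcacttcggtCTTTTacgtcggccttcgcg
ZFAS1: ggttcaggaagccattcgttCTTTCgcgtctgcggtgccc
SNHG19: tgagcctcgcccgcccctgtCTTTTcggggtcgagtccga
SNHG12: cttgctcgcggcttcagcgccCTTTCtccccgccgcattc
SNHG4: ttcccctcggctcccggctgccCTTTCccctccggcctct
SNHG16: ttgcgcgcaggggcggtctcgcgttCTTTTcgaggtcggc
GAS5: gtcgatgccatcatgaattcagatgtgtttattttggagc
DANCR: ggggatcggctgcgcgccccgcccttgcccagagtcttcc
These windows lie at chr6:85678714-85678753 on the minus strand (SNHG5), chr20:49278622-49278661 on the plus strand (ZFAS1), chr16:2155339-2155378 on the minus strand (SNHG19) and chr1:28581854-28581893 on the minus strand (SNHG12). Those of SNHG4 and SNHG16 lie at chr5:139274081-139274120 and chr17:76557744-76557783, both on the plus strand. GAS5 lies at chr1:173869026-173869065 on the minus strand and DANCR at chr4:52712374-52712413 on the plus strand.

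The letters CTTTC or CTTTT, searched on the sense strand, were in the window of 10 of the 26 hosts that have a RefSeq start (38.5%). They were in 10.0% of the windows of all 35116 RefSeq starts on the sense strand and in 7.34% on the antisense strand, and in 43 of 62 ribosomal protein genes (69.4%). The motif was chosen after the values were known, and a match is only a description of these letters. In SNHG5, ZFAS1 and SNHG19 the motif began at the RefSeq start. In SNHG8, SNHG26 and SNHG21 it began before that start, at positions -4, -14 and -19. The outermost GENCODE 29 start lies 464 bases upstream of the RefSeq start for ZFAS1, 15 bases upstream for SNHG5 and at the same base for SNHG19. The 24 bases below open the commonest start among 29 annotated GAS5 transcripts of GENCODE 29 (chr1:173867966-173867989, GRCh38, minus strand), which 6 of them use and which lies downstream of the RefSeq start.
GAS5 commonest GENCODE start: CTTTTcgaggtaggagtcgactcc
Of the 29 GAS5 transcripts, 7 held the motif, again in capitals, in their first 10 bases, so that GAS5 counts as a host without the motif in the RefSeq windows and with it by this start. Which hosts count as holding the motif therefore depends on the annotation. It also depends on the bases searched, as the RefSeq windows hold 20 bases before the start and the next search holds none. SNHG21 has the same start in both annotations, and its motif at -19 lies before that start. Searched in the first 10 bases at each gene's commonest GENCODE 29 start, the motif was in 9 of 30 hosts and in 2105 of 57104 genes (3.69%). Where starts tied for commonest, all were searched and any match was enough. Genes with tied starts thus had more chances of a match, so the rates of hosts and of all genes are not strictly comparable. By both searches 5 hosts held it, SNHG5, SNHG12, SNHG16, SNHG19 and TAF1D. ZFAS1, SNHG4, SNHG8, SNHG21 and SNHG26 held it by RefSeq alone, and GAS5 and SNHG3 by GENCODE 29 alone. SNHG6 and SNHG25 held it by GENCODE 29 and have no RefSeq start, so they could not be searched by RefSeq. SNHG9 and SNHG15 have no RefSeq start either.

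The 12 libraries held 13168749 to 18321114 assigned counts, and levels are CPM, counts relative to library size with the TMM factors of edgeR. The hosts took 0.111 ± 0.00101% of counts in p16 with Torin2, 0.0462 ± 0.00091% in p21, 0.0510 ± 0.00157% in p16 and 0.0389 ± 0.000197% in mVenus (SD, n = 3 each). GAS5 alone made up 41.8 ± 0.327% of host counts in p16 with Torin2, 23.1 ± 0.342% in p21, 25.0 ± 0.425% in p16 and 14.2 ± 0.707% in mVenus. Ribosomal protein transcripts took 6.49 ± 0.0262%, 2.71 ± 0.0774%, 3.52 ± 0.0660% and 2.73 ± 0.0363% of counts in the same order of groups, and mitochondrially encoded ones 6.02 ± 0.597%, 6.49 ± 0.456%, 6.62 ± 0.291% and 3.87 ± 0.0303%. With both of these classes left out of library sizes, as many hosts were called in each comparison as with them. All 8 mammary epithelial markers had counts in every group, and their summed level was 8257 to 8527 CPM in p16 with Torin2, 9572 to 9924 in p21, 16360 to 17090 in p16 and 7478 to 7888 in mVenus. KRT5, KRT6A and KRT17 made up most of this sum in p16 (means of 4396, 4011 and 5435 CPM). The median log2 fold change of the 8 was 1.01 in p16 over mVenus (0.01 to 2.86) and 0.01 in p21 over mVenus (-0.37 to 1.16). With Torin2 over p16 it was -0.78 (-2.02 to 1.07), so single markers did not all follow the sum. Of 4 leukocyte markers CD3E and TYROBP had 0 counts in all groups and PTPRC had 1 count in 1 mVenus library. CD14 made up the rest of their summed level, which was 13.5 to 17.0 CPM in p16 with Torin2, 20.9 to 24.4 in p21, 34.5 to 38.5 in p16 and 12.8 to 17.6 in mVenus. The part of these markers in the results for the hosts was not tested, and in bulk RNA fewer cells of a type and less RNA per cell cannot be told apart. CDKN2A, the gene of p16, had 0 counts in all 12 libraries, so the counts give no check of the p16 label, and CDKN1A, the gene of p21, stood at 888 ± 16.5 CPM in p21 and 711 ± 12.95 in mVenus.

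**Figure D1:**
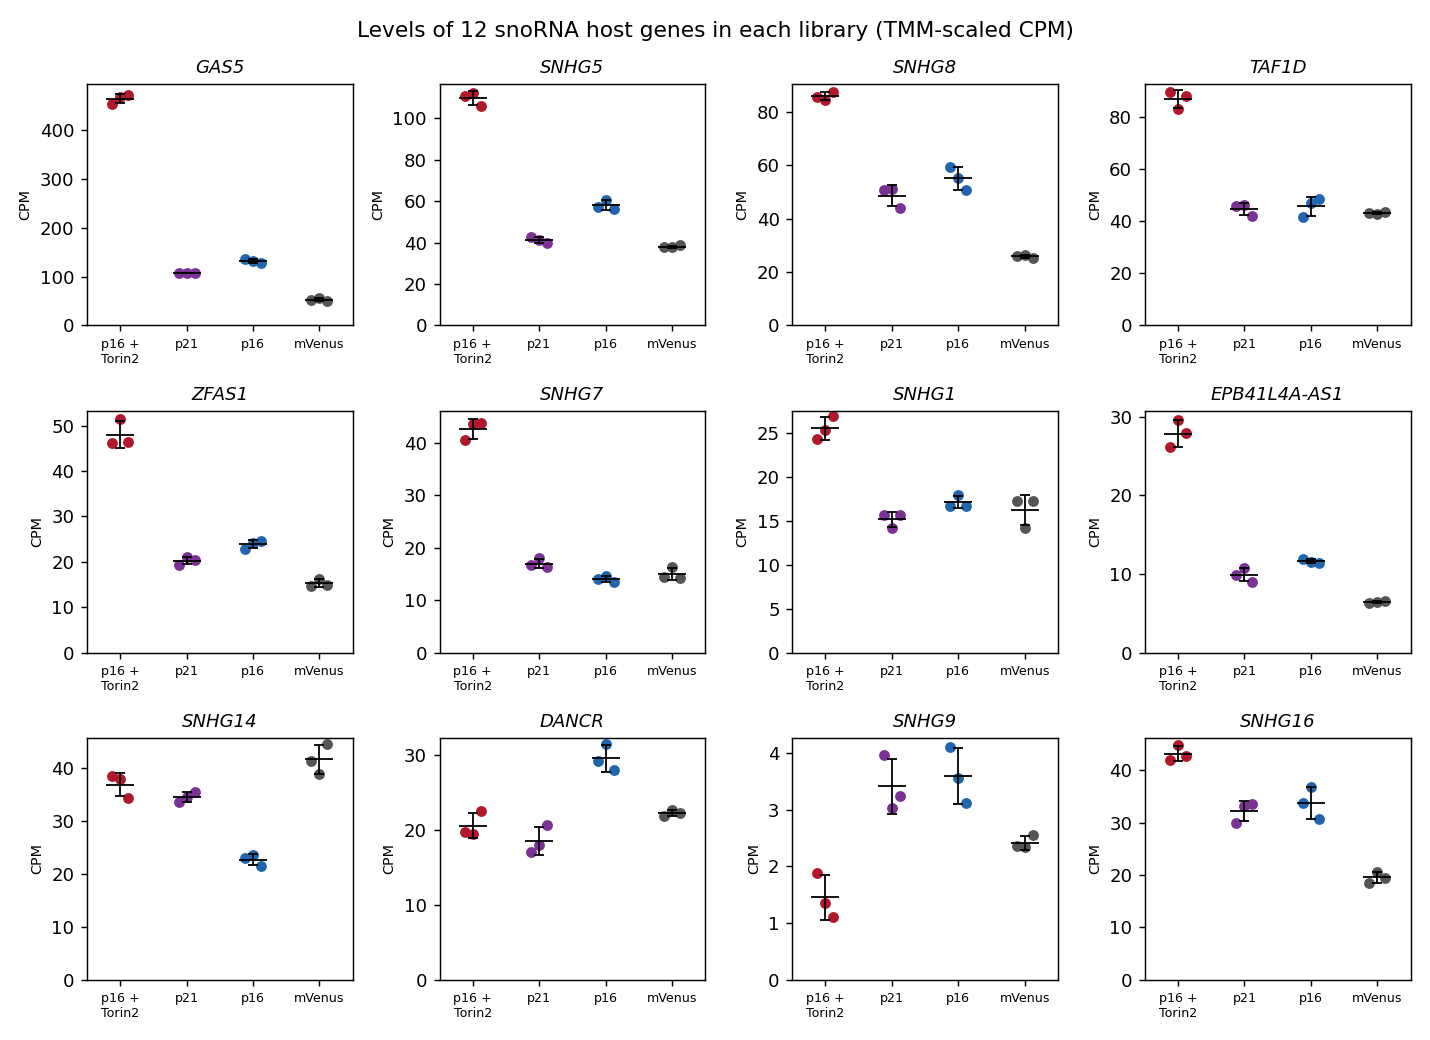
Levels of 12 host genes in CPM (linear axes from 0), with each point a library, the bar the group mean and the whisker 1 SD (n = 3); from left to right p16 with Torin2, p21, p16 and mVenus. GAS5 lies at 454 to 473 CPM in p16 with Torin2 and at 50.6 to 56.1 CPM in mVenus, whereas SNHG14 is lowest in p16 and SNHG9 is lowest in p16 with Torin2.

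The first comparison asks how 5 days of p16 expression moved the hosts relative to mVenus alone. GAS5, SNHG8, EPB41L4A-AS1, SNHG4, SNHG16, ZFAS1 and SNHG5 rose by 1.53-fold to 2.49-fold, and SNHG14 fell. In all, 11 of the 25 tested hosts were higher and 2 lower in p16, against 30.9% of all 14504 genes higher and 32.8% lower (63.6% called in either direction). The median log2 fold change was 0.25 over the hosts and -0.00 over all genes tested. With library totals as the only scaling, 11 were higher and 5 lower, while the median of all genes moved to -0.11.

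GAS5, named for its accumulation in growth-arrested cells (chromosome 1, 173863900 to 173868882, minus strand, GRCh38, as are all gene positions), had 454, 468 and 473 CPM in p16 with Torin2, 108, 107 and 107 in p21, 135, 132 and 128 in p16 and 52.6, 56.1 and 50.6 in mVenus. The 4 groups did not overlap in any pair, and the largest SD within a group was 9.65 CPM. GAS5 was 2.49-fold higher in p16 than in mVenus (log2 fold change 1.32 ± 0.04, edgeR adjusted p = 1.02e-20). Here and below, ± after a log2 fold change is its standard error (SE) from the edgeR fit, and ± after a level is the SD. SNHG8, host of the box H/ACA snoRNA SNORA24 (chromosome 4, 118278709 to 118279823), had 85.4, 84.6 and 87.5 CPM in p16 with Torin2, 50.6, 51.01 and 44.1 in p21, 59.2, 55.4 and 50.6 in p16 and 26.1, 26.5 and 25.2 in mVenus. Its p16 libraries were above every mVenus library, 2.13-fold in the fit (log2 fold change 1.09 ± 0.06, edgeR adjusted p = 1.12e-14).

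ZFAS1, a host of box C/D snoRNAs that starts head to head with ZNFX1 (chromosome 20, 49278178 to 49295738), had 46.1, 51.4 and 46.4 CPM in p16 with Torin2, 19.4, 21.02 and 20.4 in p21, 22.9, 24.2 and 24.6 in p16 and 14.7, 16.3 and 14.9 in mVenus. All p16 libraries lay above all mVenus libraries (log2 fold change 0.65 ± 0.07, edgeR adjusted p = 1.13e-08). EPB41L4A-AS1, host of SNORA13 (chromosome 5, 112160526 to 112164276), had 26.1, 29.6 and 27.9 CPM in p16 with Torin2, 9.89, 10.7 and 9.04 in p21, 11.96, 11.6 and 11.4 in p16 and 6.33, 6.49 and 6.58 in mVenus. It too was higher in p16 with no overlap (log2 fold change 0.85 ± 0.10, edgeR adjusted p = 1.39e-08). SNHG5, host of SNORD50B (chromosome 6, 85660950 to 85678748), had 111, 112 and 106 CPM in p16 with Torin2, 42.5, 41.4 and 39.8 in p21, 57.2, 60.7 and 56.4 in p16 and 37.8, 37.7 and 38.7 in mVenus. Its p16 libraries were above both p21 and mVenus (log2 fold change 0.61 ± 0.05, edgeR adjusted p = 2.89e-11 against mVenus).

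SNHG20, host of the Cajal body RNA SCARNA16 (chromosome 17, 77086716 to 77099902), had 2.86, 3.49 and 3.41 CPM in p16 with Torin2, 1.39, 1.79 and 2.35 in p21, 2.305, 1.71 and 2.30 in p16 and 1.15, 1.53 and 0.870 in mVenus. Low as it is, it was higher in p16 without overlap (log2 fold change 0.86 ± 0.25, edgeR adjusted p = 0.00409). DANCR, a host of SNORA26 known for holding back differentiation of epidermal progenitors (chromosome 4, 52712404 to 52720351), had 19.8, 19.5 and 22.6 CPM in p16 with Torin2, 17.1, 18.05 and 20.7 in p21, 29.2, 31.6 and 28.1 in p16 and 21.9, 22.7 and 22.3 in mVenus. It was 1.33-fold higher in p16 than in mVenus (log2 fold change 0.41 ± 0.07, edgeR adjusted p = 1.94e-05). The remaining rises were SNHG4 (0.77 ± 0.12), SNHG16 (0.79 ± 0.07), SNHG9 (0.57 ± 0.19) and SNHG15 (0.53 ± 0.12 on the log2 scale). The call of SNHG9 was lost without p16 replicate 1 (adjusted p = 0.0606 by edgeR, 0.00558 to 0.0606 over 14 alternatives).

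SNHG14 is the long imprinted transcript that carries the SNORD115 and SNORD116 clusters of the Prader-Willi region and runs antisense to UBE3A (chromosome 15, 24978583 to 25419462). It had 38.5, 37.9 and 34.4 CPM in p16 with Torin2, 33.7, 34.6 and 35.6 in p21, 23.05, 23.6 and 21.5 in p16 and 41.5, 39.02 and 44.6 in mVenus. Its p16 libraries were the lowest of the 12, and it was 1.84-fold lower than in mVenus (log2 fold change -0.88 ± 0.07, edgeR adjusted p = 2e-12). Its neighbours SNRPN (-0.62 ± 0.13, adjusted p = 0.00016) and UBE3A (-0.12 ± 0.05, adjusted p = 0.0313), the tested members of 7 imprinted neighbours, also fell in p16, although the p16 and mVenus libraries overlapped for UBE3A and SNRPN shares 33.6% of its exonic bases with other genes. SNHG28, which spans no annotated snoRNA and whose name covers 2 gene identifiers, fell (-1.12 ± 0.38) and lay under 1 CPM on average in both groups, with 41.6% of its exonic bases shared with other genes. Its call was lost without mVenus replicate 1 and without p16 replicate 3 (adjusted p of 0.0679 and 0.0831 by edgeR, 0.00395 to 0.0831 over 13 alternatives).

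The other 12 tested hosts did not pass in p16. Among them were SNHG1, host of 6 annotated box C/D snoRNAs (chromosome 11, 62851988 to 62855914), and TAF1D, a subunit of the selectivity factor of RNA polymerase I (chromosome 11, 93729948 to 93784391). TAF1D is annotated as protein-coding, as is SNHG28. SNHG1 had 24.3, 25.3 and 26.8 CPM in p16 with Torin2, 15.7, 14.2 and 15.6 in p21, 16.7, 17.96 and 16.7 in p16 and 17.3, 14.2 and 17.2 in mVenus. TAF1D had 89.9, 83.2 and 88.1 CPM in p16 with Torin2, 45.95, 46.5 and 42.1 in p21, 41.7, 47.2 and 48.4 in p16 and 43.3, 42.9 and 43.5 in mVenus. In both genes the libraries of p21, p16 and mVenus lay close together and those of p16 with Torin2 stood above them. Their log2 fold changes in p16 were 0.07 ± 0.08, adjusted p = 0.506 for SNHG1, and 0.08 ± 0.06, adjusted p = 0.245 for TAF1D, which passed without p16 replicate 1 (adjusted p = 0.0333 by edgeR, 0.0333 to 0.704 over 14 alternatives).

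**Figure D2:**
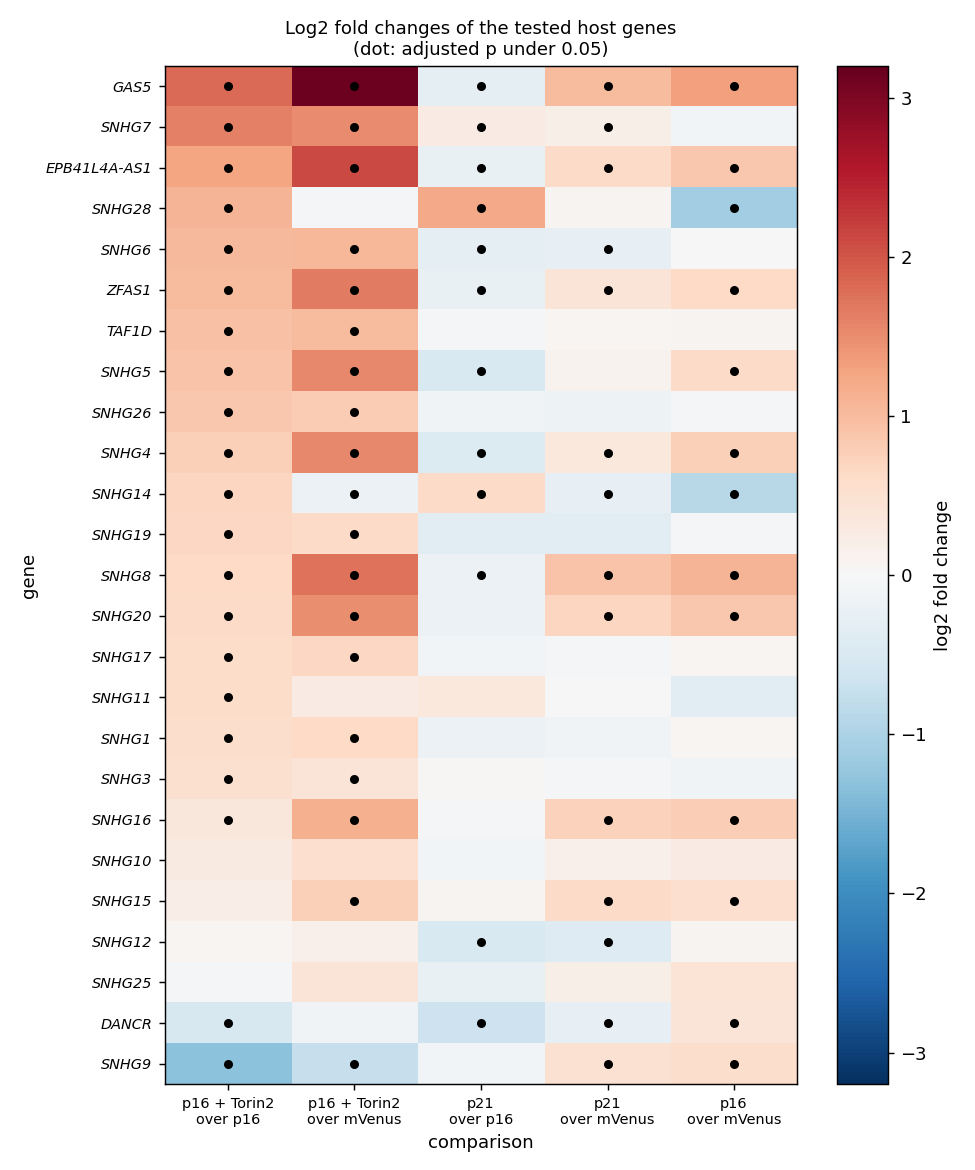
Log2 fold change (colour) of the 25 tested hosts (rows) in 5 comparisons (columns), with a dot where the edgeR adjusted p is under 0.05; rows run from the highest to the lowest value with Torin2. GAS5 reaches 3.13 for p16 with Torin2 over mVenus, and SNHG9 and DANCR at the foot are negative with Torin2 over p16 and positive for p16 over mVenus.

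The second comparison asks the same of p21, and it shares the mVenus libraries with the first. GAS5, SNHG8 and SNHG16 rose most and SNHG12, SNHG14 and SNHG6 fell most. Of the 25 tested hosts 10 were higher and 4 lower, against 28.2% of all genes higher and 28.4% lower (56.6% in either direction). The median log2 fold change was 0.11 over the hosts and -0.00 over all genes. With library totals as the only scaling 7 were higher and 5 lower, and without the 7 tested hosts that share over 30% of their exonic bases with another gene 6 were higher and 3 lower of 18.

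GAS5 in p21 was 2.03 times its mVenus level (log2 fold change 1.02 ± 0.04, edgeR adjusted p = 7.88e-18), and SNHG8 1.87 times (log2 fold change 0.91 ± 0.07, edgeR adjusted p = 1.47e-12). SNHG16, host of SNORD1A, SNORD1B and SNORD1C (chromosome 17, 76557766 to 76565348), had 41.9, 44.8 and 42.7 CPM in p16 with Torin2, 29.98, 33.1 and 33.5 in p21, 33.8, 36.8 and 30.6 in p16 and 18.5, 20.6 and 19.5 in mVenus. Its mVenus libraries were the lowest of the 12 (log2 fold change 0.73 ± 0.07, edgeR adjusted p = 1.29e-09 for p21). EPB41L4A-AS1 (0.61 ± 0.10, adjusted p = 8.19e-06), SNHG15 (0.61 ± 0.11, adjusted p = 4.54e-05) and ZFAS1 (0.41 ± 0.08, adjusted p = 3.42e-05) rose as well.

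SNHG12, host of 3 box H/ACA snoRNAs and SNORD99 (chromosome 1, 28578538 to 28583132), had 12.3, 13.2 and 15.9 CPM in p16 with Torin2, 9.24, 9.89 and 8.97 in p21, 13.4, 14.2 and 11.8 in p16 and 12.1, 12.1 and 12.9 in mVenus. It was lower in p21 than in mVenus with no overlap (log2 fold change -0.40 ± 0.10, edgeR adjusted p = 0.00134). SNHG14 was lower too (log2 fold change -0.27 ± 0.06, edgeR adjusted p = 0.000463), with UBE3A also lower (-0.12 ± 0.05, adjusted p = 0.0385) and SNRPN higher (0.34 ± 0.12, adjusted p = 0.0148). SNHG6, host of SNORD87, had 31.5, 33.3 and 30.6 CPM in p16 with Torin2, 13.3, 13.6 and 11.1 in p21, 14.5, 15.5 and 16.2 in p16 and 15.6, 15.9 and 14.4 in mVenus. Its p21 libraries were below the mVenus libraries (log2 fold change -0.27 ± 0.09, edgeR adjusted p = 0.00955), a call that was lost without p21 replicate 3 (adjusted p = 0.106 by edgeR, 0.00147 to 0.106 over 13 alternatives).

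DANCR fell in p21 relative to mVenus (log2 fold change -0.26 ± 0.08, edgeR adjusted p = 0.007), the other way from p16. This call was lost without p21 replicate 1 (adjusted p = 0.0587 by edgeR, 0.000753 to 0.0587 over 14 alternatives). SNHG5 in p21 stood at 0.11 ± 0.05, adjusted p = 0.0739, and passed in 3 alternatives (0.0307 to 0.524 over 14). The rises of SNHG4, SNHG7, SNHG9 and SNHG20 in p21 (log2 fold changes of 0.35 ± 0.12, 0.19 ± 0.08, 0.49 ± 0.19 and 0.68 ± 0.26) were each lost in 4 or more alternatives, and for SNHG7 and SNHG20 the groups overlapped. By edgeR the adjusted p of SNHG4 was 0.00914 to 0.106, lost without mVenus replicate 1 or p21 replicate 2. For SNHG7 it was 0.0172 to 0.225, lost without mVenus replicate 1 or 3 or p21 replicate 1 or 2. SNHG9 had 0.0231 to 0.139, lost without mVenus replicate 1 or 2 or p21 replicate 1, and SNHG20 0.0103 to 0.175, lost without mVenus replicate 1 or 3 or p21 replicate 3.

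Set directly against p16, p21 had lower levels of DANCR, SNHG5 and SNHG12, which fell most, while SNHG14, SNHG28 and SNHG7 were higher. Of the 25 tested hosts 3 were higher and 9 lower in p21 than in p16, against 27.2% of all genes higher and 27.1% lower (54.3% in either direction). The median log2 fold change was -0.18 over the hosts and -0.01 over all genes. Without the hosts that share over 30% of their exonic bases, 1 was higher and 6 were lower of 18.

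The falls were DANCR (-0.67 ± 0.08, adjusted p = 2.21e-08), SNHG5 (-0.50 ± 0.05, adjusted p = 3.41e-09), SNHG12 (-0.49 ± 0.10, adjusted p = 0.000205), SNHG4 (-0.43 ± 0.11), GAS5 (-0.30 ± 0.04, adjusted p = 3.89e-07), SNHG6 (-0.28 ± 0.09), EPB41L4A-AS1 (-0.24 ± 0.09), ZFAS1 (-0.23 ± 0.07, adjusted p = 0.0071) and SNHG8 (-0.18 ± 0.06 on the log2 scale). SNHG14 in p21 was 1.52 times its p16 level (log2 fold change 0.61 ± 0.07, edgeR adjusted p = 1.29e-08), SNRPN likewise (0.96 ± 0.13, adjusted p = 2.86e-07), and UBE3A did not pass (0.00 ± 0.05, adjusted p = 0.975). SNHG7, host of SNORA17A and SNORA17B (chromosome 9, 136721366 to 136728184), had 40.5, 43.7 and 43.9 CPM in p16 with Torin2, 16.6, 17.99 and 16.3 in p21, 14.1, 14.7 and 13.4 in p16 and 14.5, 16.4 and 14.2 in mVenus. Its p21 libraries were above the p16 libraries (log2 fold change 0.27 ± 0.08, edgeR adjusted p = 0.00595). SNHG28 had 0.976, 1.098 and 0.851 CPM in p16 with Torin2, 1.47, 0.804 and 0.954 in p21, 0.685, 0.460 and 0.203 in p16 and 1.204, 1.02 and 0.762 in mVenus. It was higher in p21 (log2 fold change 1.21 ± 0.38, edgeR adjusted p = 0.00853), lost without p16 replicate 3 or p21 replicate 1 (adjusted p of 0.0623 and 0.0675 by edgeR, 0.00307 to 0.0675 over 13 alternatives). Leaving out p21 replicate 3 also ended the calls of SNHG6 (0.0989, 0.00655 to 0.0989 over 13 alternatives), EPB41L4A-AS1 (0.164, 0.0188 to 0.164 over 13 alternatives) and SNHG8 (0.133, 0.000830 to 0.133 over 14 alternatives). SNHG8, whose p21 and p16 libraries overlapped, also lost its call without p16 replicate 1 (0.0886). EPB41L4A-AS1 lost its call in 8 of 13 alternatives, among them without p16 replicate 1 or 2 and without p21 replicate 1.

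Torin2 raised most hosts in p16 cells. GAS5, SNHG7 and EPB41L4A-AS1 rose by 2.39-fold to 3.52-fold, and SNHG6, ZFAS1, TAF1D and SNHG5 by 1.89-fold to 2.07-fold, while SNHG9 and DANCR fell. Of the 25 tested hosts 19 were higher and 2 lower than in p16 with DMSO, against 30.5% of all genes higher and 29.1% lower (59.6% in either direction). The median log2 fold change was 0.64 over the hosts and 0.02 over all genes.

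GAS5 was 3.52-fold higher with Torin2 (log2 fold change 1.82 ± 0.04, edgeR adjusted p = 1.08e-24), and SNHG7 was 3.04-fold higher (log2 fold change 1.603 ± 0.07, edgeR adjusted p = 2.78e-17). EPB41L4A-AS1 was 2.39-fold higher (log2 fold change 1.25 ± 0.08, edgeR adjusted p = 5.89e-14), while EPB41L4A, which covers 49.6% of its exonic bases, was lower (-0.54 ± 0.08, adjusted p = 1.03e-06). SNHG6 (1.05 ± 0.08, adjusted p = 1.61e-12), ZFAS1 (1.01 ± 0.06, adjusted p = 7.84e-14), TAF1D (0.93 ± 0.06, adjusted p = 2.08e-14) and SNHG5 (0.92 ± 0.05, adjusted p = 5.77e-16) followed, each with no overlap between the groups. SNHG14 (0.70 ± 0.07, adjusted p = 5.68e-10), SNHG8 (0.64 ± 0.06, adjusted p = 1.09e-10) and SNHG1 (0.57 ± 0.08, adjusted p = 3.47e-07) rose by less.

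The other rises with Torin2 were SNHG4, SNHG19, SNHG17, SNHG11, SNHG3, SNHG16, SNHG20, SNHG26 and SNHG28, with log2 fold changes of 0.36 (SNHG16) to 1.09 (SNHG28). Those of SNHG20, SNHG26 and SNHG28, with mean levels of 0.975 to 3.25 CPM with Torin2, were lost in the DESeq2 test and without p16_Torin2 replicate 2, and also without p16 replicate 2 for SNHG20 and without p16 replicate 3 for the others. Their adjusted p ran up to 0.0806 (SNHG20), 0.104 (SNHG26) and 0.105 (SNHG28), from lowest values of 0.00948, 0.00799 and 0.00573 over 14, 14 and 13 alternatives. SNHG10, SNHG12, SNHG15 and SNHG25 did not pass, at 0.29 ± 0.31, 0.07 ± 0.10, 0.22 ± 0.11 and -0.03 ± 0.30.

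SNHG9, a short host of SNORA78 that starts head to head with RPS2 (chromosome 16, 1964959 to 1965509), fell. It had 1.89, 1.36 and 1.11 CPM in p16 with Torin2, 3.96, 3.03 and 3.24 in p21, 4.11, 3.55 and 3.11 in p16 and 2.36, 2.33 and 2.56 in mVenus. The Torin2 libraries were the lowest of the 12, 2.47-fold below p16 (log2 fold change -1.30 ± 0.21, edgeR adjusted p = 4.02e-06). DANCR was 1.44-fold lower with Torin2 than in p16 (log2 fold change -0.52 ± 0.08, edgeR adjusted p = 9.12e-07), with every Torin2 library below every p16 library.

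**Figure D3:**
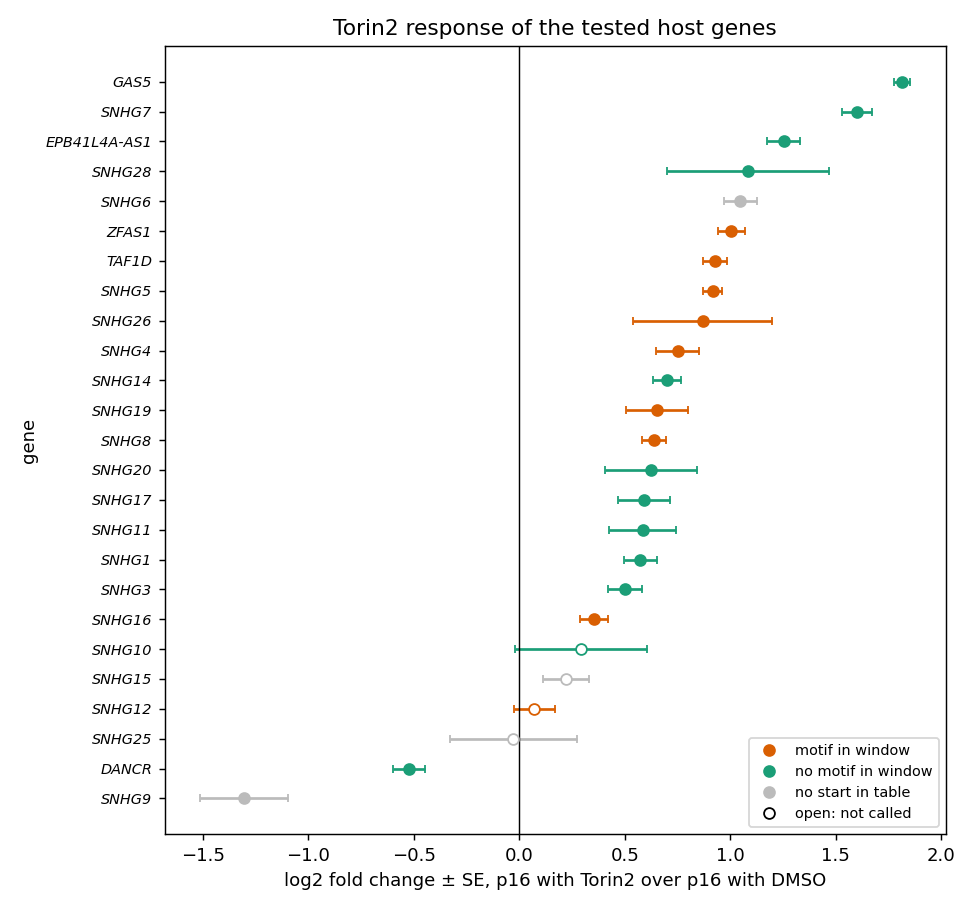
Log2 fold change of the 25 tested hosts for p16 with Torin2 over p16 with DMSO, with whiskers of 1 SE from the edgeR fit; filled points passed and colours mark whether CTTTC or CTTTT lies in the RefSeq start window. GAS5 is highest at 1.82 and SNHG9 lowest at -1.30, and hosts with and without the motif mix along the axis.

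Of the 9 tested hosts with the motif in the RefSeq window, 8 were higher with Torin2 and 0 lower, with a median log2 fold change of 0.75 and a range of 0.07 to 1.01, where 30.5% of all tested genes were higher and 29.1% lower. Of the 9, SNHG8 and SNHG26 held a motif that began before the RefSeq start. Of the 12 tested hosts with a RefSeq window and no motif, 10 were higher and 1 lower, with a median of 0.61 and a range of -0.52 to 1.82. By the GENCODE 29 starts, 7 of 9 hosts with the motif were higher and 0 lower (median 0.65), and 12 of 16 without it were higher and 2 lower (median 0.63). Hosts of box C/D snoRNAs alone were higher in 8 of 8 (median 0.78), and hosts of box H/ACA snoRNAs alone were higher in 7 and lower in 2 of 10 (median 0.59). Against mVenus, box C/D hosts were higher in 2 and lower in 2 of 8 in p21 (median -0.14), and higher in 3 and lower in 1 in p16 (median 0.04). Box H/ACA hosts were higher in 6 and lower in 1 of 10 in p21 (median 0.27), and higher in 6 and lower in 0 in p16 (median 0.47). Of all tested genes, 28.2% were higher and 28.4% lower in p21 against mVenus, and 30.9% higher and 32.8% lower in p16. DANCR and SNHG9, the hosts that fell, each hold an H/ACA snoRNA. GAS5 is in neither kind, because no snoRNA is annotated by these names within it. Its log2 fold changes were 1.82 with Torin2, 1.02 in p21 against mVenus and 1.32 in p16 against mVenus. No test of the difference between these kinds of host was made.

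Set against mVenus, p16 cells with Torin2 differed most in GAS5, EPB41L4A-AS1 and SNHG8, a contrast that holds both the transgene and the drug and shares libraries with those above. Of the 25 tested hosts 17 were higher and 2 lower, against 31.2% of all genes higher and 36.2% lower (67.4% in either direction). The median log2 fold change was 0.75 over the hosts and -0.03 over all genes. GAS5 was 8.78-fold higher (log2 fold change 3.13 ± 0.04, edgeR adjusted p = 2.25e-29), EPB41L4A-AS1 4.30-fold (log2 fold change 2.11 ± 0.09, edgeR adjusted p = 1.75e-18) and SNHG8 3.31-fold (log2 fold change 1.73 ± 0.06, edgeR adjusted p = 9.08e-20). SNHG9 was lower (log2 fold change -0.73 ± 0.22, edgeR adjusted p = 0.00416). SNHG14 was lower as well (log2 fold change -0.18 ± 0.06, edgeR adjusted p = 0.0115), lost without mVenus replicate 3 (0.106), without p16_Torin2 replicate 3 (0.0961), without the low-count filter (0.0506) and in the DESeq2 test (0.0510), with a range of 0.000913 to 0.106 over 14 alternatives. DANCR, with the opposite changes in p16 and with Torin2, did not pass (-0.11 ± 0.08, adjusted p = 0.208), except with library totals only (0.0424). Among the other rises, that of SNHG26 (0.82 ± 0.32) was lost without mVenus replicate 2 or 3 or p16_Torin2 replicate 2 (0.00569 to 0.132 over 14 alternatives).

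Per length, in TPM, which divide counts by exonic length, the order of the hosts shifted between groups. GAS5 led in p16 with Torin2 at 448 ± 5.47 TPM, ahead of SNHG8 at 326 ± 3.604. In the other groups SNHG8 led, at 185 ± 17.5 TPM in p21, 198 ± 16.6 in p16 and 113 ± 2.05 in mVenus, against 104 ± 2.26, 120.3 ± 3.86 and 58.8 ± 2.76 TPM for GAS5. In mVenus, SNHG5, SNHG19 and SNHG6 came next at 54.6 ± 1.11, 50.4 ± 1.801 and 49.4 ± 2.27 TPM, close to GAS5.

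Genes that start on the opposite strand within 1000 bases of a host are taken here as its partners. ZNFX1, an antiviral RNA helicase and the partner of ZFAS1, had 166 ± 6.85 CPM in p16 with Torin2, 596 ± 41.96 in p21, 441 ± 23.3 in p16 and 228 ± 12.4 in mVenus. It was lower with Torin2 than in p16 (log2 fold change -1.41 ± 0.05, edgeR adjusted p = 1.63e-14), while ZFAS1 was higher. RPS2, a ribosomal protein gene and the partner of SNHG9, had 1553 ± 61.7 CPM in p16 with Torin2, 577 ± 21.7 in p21, 846 ± 48.1 in p16 and 609 ± 19.4 in mVenus. It was higher with Torin2 (log2 fold change 0.88 ± 0.04, edgeR adjusted p = 6.96e-17), while SNHG9 was lower. SLC3A2, the heavy chain of amino acid transporters and the partner of SNHG1, rose with Torin2 (0.46 ± 0.04, adjusted p = 3.97e-12), as did ZBTB37, the partner of GAS5 (0.56 ± 0.09, adjusted p = 2.81e-06), and MED17, the Mediator subunit beside TAF1D, did not pass (0.29 ± 0.14, adjusted p = 0.071). MED17 counts as a partner by the outermost GENCODE 29 start of TAF1D, which lies 42896 bases from its RefSeq start. In p16 against mVenus, ZBTB37 was lower (-0.26 ± 0.09, adjusted p = 0.0109) and GAS5 higher. As strand was not used in counting, reads from exonic bases that partners share cannot be told apart and stay unassigned.

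Of other genes with a TOP tract, 70 of 73 tested ribosomal protein genes were higher and 0 lower with Torin2 (median log2 fold change 0.78), RPL10 (1.26 ± 0.09) and RPL3 (1.21 ± 0.04) among them, and 15 of 16 other TOP mRNAs were higher and 0 lower (median 0.92), HNRNPA1 and EIF4B by 1.38 and 1.19. The median of the hosts lay below both. In p16 against mVenus 68 ribosomal protein genes were higher and 0 lower (median 0.47) and 13 TOP mRNAs were higher and 2 lower (median 0.38). In p21 against mVenus 27 and 12 ribosomal protein genes were higher and lower (median 0.04), and 6 and 3 TOP mRNAs (median 0.04). In p21 against p16 0 ribosomal protein genes were higher and 68 lower (median -0.43), and 0 TOP mRNAs were higher and 13 lower (median -0.32). RPL10 shares 55.5% of its exonic bases with other genes. Over all tested genes 30.5% were higher and 29.1% lower with Torin2. Against mVenus these shares were 28.2% and 28.4% in p21 and 30.9% and 32.8% in p16, and in p21 against p16 they were 27.2% and 27.1%.

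Lists overlap here, as genes of the other lists were not removed: RPL12, for example, is also among the ribosomal protein genes. Of 139 other tested genes that span a SNORA or SNORD snoRNA 72 were higher and 21 lower with Torin2 (median 0.18). Against mVenus 43 were higher and 41 lower in p21 (median -0.01), and 67 higher and 33 lower in p16 (median 0.17). Among these genes, C19orf48 (1.41 ± 0.07, adjusted p = 1.88e-15) rose with Torin2 and ATP6V0E1, a subunit of the vacuolar proton pump, fell (-0.65 ± 0.04, adjusted p = 6.35e-15). AC106886.5 fell further (-1.002 ± 0.16, adjusted p = 6.42e-06), but 92.4% of its exonic bases are shared with other genes, mainly SRCAP, so its counts are uncertain. The shares over all tested genes were 30.5% higher and 29.1% lower with Torin2. Against mVenus they were 28.2% and 28.4% in p21 and 30.9% and 32.8% in p16.

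Of 8 core proteins of snoRNA particles 4 were higher and 1 lower with Torin2 (median 0.11), with GAR1, a core H/ACA protein (0.43 ± 0.09, adjusted p = 0.000241), and NOP56, a core C/D protein (0.26 ± 0.04, adjusted p = 6.59e-07), up and NOP10, another H/ACA protein (-0.32 ± 0.05, adjusted p = 6.81e-07), down. The core C/D methyltransferase FBL, one of the 4 called higher, had 1.04, 1.03 and 10.4 CPM in p16 with Torin2 and 0.685, 0.395 and 0.203 in p16, with 1 Torin2 library far above the others. FBL had only 11, 6 and 3 counts in p16, against 2262, 2164 and 2080 for NOP56, so its level and call are uncertain. The cause of its low counts was not tested. Of 9 tested assembly factors 5 were higher and 0 lower (median 0.16), NAF1 and ZNHIT6 by 0.50 and 0.46. In p16 against mVenus 5 core proteins were higher and 0 lower (median 0.28), SNU13 (0.60 ± 0.04) and DKC1, the pseudouridine synthase (0.47 ± 0.05), among them, and 4 assembly factors were higher and 1 lower (median 0.11). In p21 against mVenus 3 core proteins were higher and 0 lower (median 0.12), and 2 assembly factors were higher and 3 lower (median -0.11). Of all tested genes 30.5% were higher and 29.1% lower with Torin2. The shares against mVenus were 30.9% and 32.8% in p16 and 28.2% and 28.4% in p21.

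Of 10 nonsense-mediated decay factors 3 were higher and 2 lower with Torin2 (median 0.02): the kinase SMG1 (0.55 ± 0.05, adjusted p = 9.04e-09) and the helicase UPF1 (0.19 ± 0.04, adjusted p = 0.000362) rose, and SMG5 (-0.12 ± 0.04) fell. Of 8 mRNAs known as targets of this decay 4 were higher and 1 lower with Torin2 (median 0.19), UPP1 by 1.27 and ATF4 by 0.56 up, and GADD45A by -0.13. In p16 against mVenus 4 decay factors were higher and 4 lower (median -0.01) and 3 targets were higher and 3 lower (median 0.05). In p21 against mVenus 1 decay factor was higher and 1 lower (median 0.08) and 5 targets were higher and 1 lower (median 0.27). Of 7 tested genes of RNA polymerase I and its selectivity factor, the partners of TAF1D, 5 were higher and 0 lower with Torin2 (median 0.18), TAF1B by 0.71 and TAF1A by 0.35. Against mVenus 2 of these were higher and 0 lower in p21 (median -0.10), and 3 higher and 2 lower in p16 (median 0.00). Of the imprinted neighbours of SNHG14, UBE3A rose with Torin2 (0.29 ± 0.05) and SNRPN did not pass (-0.11 ± 0.14). Beside these counts, 30.5% of all tested genes were higher and 29.1% lower with Torin2. Against mVenus 30.9% were higher and 32.8% lower in p16, and 28.2% higher and 28.4% lower in p21.

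**Figure D4:**
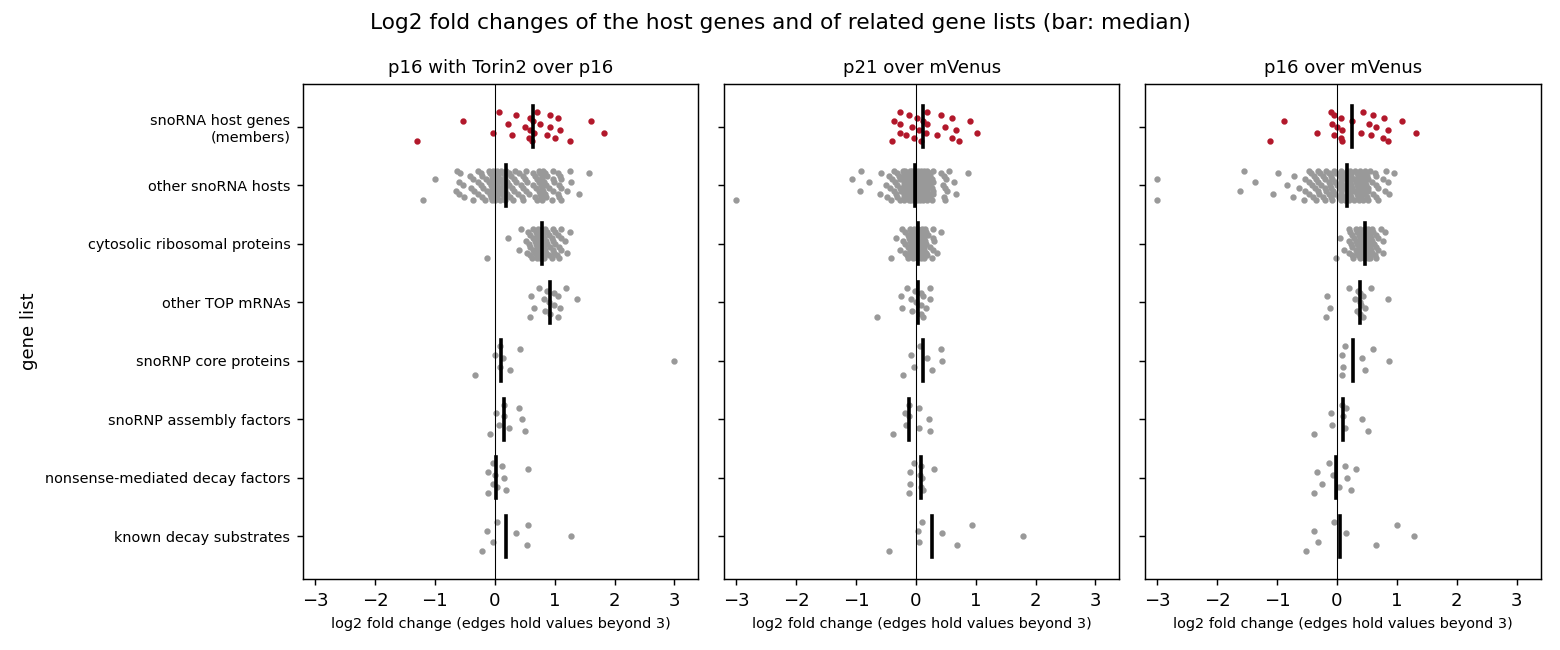
Log2 fold changes of the tested genes in 8 lists (rows; each point a gene, the black bar the median) for p16 with Torin2 over p16, p21 over mVenus and p16 over mVenus; values beyond 3 are drawn at the edge. With Torin2 the hosts (red, median 0.64) lie between the other snoRNA hosts (0.18) and the ribosomal protein genes (0.78). Some genes, such as RPL12, are in both of the latter lists.

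The 5 hosts that were not tested were at or near 0. MEG3, the imprinted maternally expressed transcript (chromosome 14, 100779410 to 100861031), and SNHG27 had 0 counts in all 12 libraries, which allows a level of up to 0.0159 CPM over the 12, counting error only. That limit holds only for reads that were assigned to a gene. EEF1G, a subunit of a translation elongation factor that every cell uses, and ZNHIT3, a factor of snoRNP assembly, also had 0 counts in all 12 libraries, and RPS25, a ribosomal protein gene, had 0 to 2 counts. A gene listed at 0 here is therefore not shown to be absent from the cells. EEF1G shares 99.9% of its exonic bases with AP002990.1, and reads that overlap several genes stay unassigned. ZNHIT3 shares 17.5% and RPS25 20.8% with other genes. The cause of these low counts was not tested. SNHG18, host of SNORD123, had 0, 6 and 3 counts in p16 with Torin2, 1, 2 and 0 in p21, 10, 5 and 5 in p16 and 14, 13 and 9 in mVenus. Its p21 counts were below all p16 and mVenus counts. SNHG21 and SNHG22, hosts of SCARNA15 and SCARNA17, had at most 5 and 6 counts in any library.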

How the data were processed

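The authors deposited counts of reads per gene name for each of 12 libraries. featureCounts 1.6.3 counted exons of GENCODE 29, per the file headers, without an option for strand, multimapping reads or pairs. The submitters' processing notes list HISAT2, Subread, FastQC 0.11.3, DESeq2 and GRCh38.p7. Reads that overlap several genes then stay unassigned, and 8 hosts share over 30% of exonic bases with another gene (EPB41L4A-AS1, ZFAS1, SNHG6, SNHG7, SNHG16, SNHG21, SNHG25 and SNHG28), so their levels are uncertain. RNA was selected by oligo-dT, per the labels' protocols, so processed snoRNAs, which lack that tail, are poorly sampled.

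The low-count filter was filterByExpr, the scaling TMM and the test edgeR's quasi-likelihood (edgeR 4.0.16, R 4.3.3, 12 libraries in 1 fit, 8 residual degrees of freedom, two-sided, Benjamini-Hochberg over 14504 genes). Rose, fell, higher and lower of single genes in a comparison mean an adjusted p under 0.05. The SE of a log2 fold change is its absolute value over the square root of the quasi-likelihood F statistic. The common biological coefficient of variation was 3.94%. Libraries held 13168749 to 18321114 counts. The replicates are biological per the series description, and within a group they differed beyond counting error (chi-square over its degrees of freedom 1.61 to 6.15).

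Values in every library are given for 10 hosts fixed by name and, per comparison, for the 3 largest rises and falls among called hosts that reach a mean of 1 CPM in either group. Genes named from a list are among its 2 largest rises and 2 largest falls with at least 5 CPM, and EPB41L4A and FBL were added after their values were seen. The members and lists were chosen with earlier results of these data known. Alternatives were DESeq2 size factors, upper quartile scaling, library totals, no low-count filter, DESeq2 1.42.0, a fit of the compared libraries alone, the replicate block, leaving out single libraries, hosts without shared exons and, chosen after seeing the data, no ribosomal protein or mitochondrial genes and the motif at GENCODE 29 starts. The code was tested on simulated counts. Exon overlaps came from bedtools 2.31.1, and figures from matplotlib 3.10.9 in Python 3.11.15. The authors' 3 tables of comparisons were not used.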

Additional observations from a re-analysis of the deposited data

Results flagged for a closer look

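DANCR moved in opposite directions under the 2 transgenes. Relative to mVenus its log2 fold change was -0.26 ± 0.08 in p21 and 0.41 ± 0.07 in p16, and the difference itself, p21 over p16, was -0.67 ± 0.08 (adjusted p = 2.21e-08 by the edgeR quasi-likelihood test, with every p21 library below every p16 library). That difference lay between -0.75 and -0.61 over 14 alternatives, although the fall in p21 against mVenus was lost without p21 replicate 1. The summed mammary epithelial markers were 9572 to 9924 CPM in p21 and 16360 to 17090 CPM in p16, and their part in the difference was not tested.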

How the results depend on the processing

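Counts of called hosts stayed within 1.5 times of the reported ones in each comparison and alternative, apart from leaving out the hosts that share exonic bases, which gave 9 called in p21 over mVenus (14 with them) and 7 in p21 over p16 (12 with them); fewer hosts are tested there. Over all alternatives, 1214 of 1280 values for single hosts kept their direction and their side of the threshold, 54 lost a call, 5 gained one and 7 changed sign, none of them called. Leaving out the hosts that share exonic bases refits nothing, so the values of the hosts that stay are copies of the reported ones. Those copies count among the 1214 and as 1 of the 14 alternatives given for each such host. With library totals only, SNHG1 in p16 over mVenus was -0.0423 and TAF1D was -0.0276 in p16 over mVenus, -0.0184 in p21 over mVenus and 0.00925 in p21 over p16. With single libraries left out SNHG1 in p16 over mVenus ran from -0.0111 (without mVenus replicate 2) to 0.111, and TAF1D in p21 over p16 from -0.0928 to 0.0173 (positive without p16 replicate 3 or p21 replicate 3). The cause was not tested. Calls that held in every alternative numbered 18 of 21 in p16 with Torin2 over p16, 17 of 19 in p16 with Torin2 over mVenus, 8 of 14 in p21 over mVenus, 8 of 12 in p21 over p16 and 11 of 13 in p16 over mVenus.

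Replicate numbers did not pair the libraries: same-numbered libraries correlated with r of -0.08 to 0.08 in their deviations from group means, 0 of 18 pairs over 0.1, and 9 of 18 matched best with their own number. With the replicate block, called hosts numbered 21 with Torin2 over p16, 19 over mVenus, 13 in p21 over mVenus, 12 in p21 over p16 and 13 in p16 over mVenus. The block ended 1 call, SNHG7 in p21 over mVenus (adjusted p = 0.0549 by edgeR). Depth limits SNHG28 most among the tested hosts, with 3 to 23 counts a library.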

Other observations

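LRRC75A-AS1, a snoRNA host whose newer symbol is SNHG29 and which the choice by name therefore missed, had 578, 573 and 576 CPM in p16 with Torin2, 162, 157 and 153 in p21, 200.1, 192 and 184 in p16 and 137, 144 and 139.7 in mVenus. Its Torin2 libraries stood far above the others, and it was 2.99-fold higher with Torin2 (log2 fold change 1.58 ± 0.04, edgeR adjusted p = 9.14e-24). It was higher than in mVenus in p21 (0.17 ± 0.04, adjusted p = 0.000367) and in p16 (0.46 ± 0.04, adjusted p = 1.78e-11). C6orf48, newer symbol SNHG32, is listed at 0 counts in all libraries, as EEF1G and ZNHIT3 are. AC016708.1, newer symbol SNHG31, had 0.455 ± 0.0638 CPM in p16 with Torin2, 0.492 ± 0.324 in p21, 0.693 ± 0.0741 in p16 and 0.982 ± 0.226 in mVenus (SD, n = 3 each). It was not called with Torin2 over p16 (-0.60 ± 0.41, adjusted p = 0.209) and was lower in p21 than in mVenus (-0.93 ± 0.37, adjusted p = 0.0344), with groups that overlap and at most 17 counts in a library. LINC02001, newer symbol SNHG30, had 0.694 ± 0.208 CPM in p16 with Torin2, 0.858 ± 0.392 in p21, 1.04 ± 0.188 in p16 and 0.824 ± 0.146 in mVenus and was not called with Torin2 over p16 (-0.58 ± 0.35, adjusted p = 0.155).

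Few snoRNAs were counted: 32 of the 135 annotated in the hosts had a count, 655 in all over 12 libraries. SNORA73B in SNHG3 had 21, 57 and 6 counts in p16 with Torin2, 6, 4 and 5 in p21, 8, 21 and 25 in p16 and 9, 6 and 4 in mVenus, a spread between replicates that SNHG3 itself, at 18.7, 18.1 and 19.4 CPM in p16 with Torin2, did not show. SNORD104 in SNHG25 had 9 to 20 counts in every library.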
